A study of Arabidopsis thaliana and Arabidopsis thaliana x Arabidopsis arenosa with 9 samples.

Results

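Seeds of reciprocal crosses between the Arabidopsis thaliana accessions Col-0 and C24 were examined for loci whose transcripts were abundant only when C24 was the seed parent. A locus was included when the lower of its values in the 2 C24 X Col-0 libraries was at least 5 RPM and at least 4 times the higher of its values in the 2 Col-0 X C24 libraries, with the seed parent named first. RPM are the reads on a locus per 1000000 reads counted in that library, and pairs of values are given in the order replicate 1, replicate 2 throughout, with Col-0 X C24 first where 1 pair is set against another without a label. Of 33602 loci, 75 were included (0.223%), and 1 further locus that met both thresholds, AT2G15050, was left out beforehand. The mirrored rule, with Col-0 as the high seed parent, was met by 121 loci (0.360%). The loci were thus chosen by their counts in these 4 libraries, so the difference between the crosses at these loci is a description and carries no test.

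In Col-0 X C24 the seed parent was ColA9, a male-sterile Col-0 line, and the pollen came from wild-type C24. C24 X Col-0 was the reverse, with the male-sterile line C24A9 pollinated by wild-type Col-0. Both seed parents were hemizygous for a male sterility construct, so no flower was emasculated, and each replicate pooled seeds dissected from many siliques at 3 days after pollination. In both crosses replicate 2, by the stated methods, was treated with duplex-specific nuclease, which removes abundant cDNA, and was amplified again. The replicates of Col-0 X C24 held 6498145 and 3538335 counted reads, and the reverse cross held 6101597 and 5521691. At these depths, 1 read was worth 0.154 to 0.283 RPM.

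A young seed joins tissues of different genetic makeup. The seed coat is maternal tissue and carries only the seed parent's alleles, the endosperm receives more maternal than paternal copies, and the embryo receives equal shares. Swapping the seed parent therefore exchanges the genotype of the seed coat and changes the allele dose of the endosperm, while the embryo keeps the same nuclear alleles. In whole seeds, fewer cells of a type and less RNA per cell cannot be told apart. All 75 loci were matched to the RefSeq annotation of the TAIR10.1 assembly.

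Markers of the tissues were checked first. Summed over 5 seed coat genes, the level was 3400 and 2550 RPM in Col-0 X C24, against 4420 and 2740 in C24 X Col-0. The 8 endosperm markers summed to 47.1 and 123 against 60.3 and 155, and the 9 pollen markers to 5.69 and 7.35 against 2.95 and 31.5. For the 5 embryo markers the sums were 162 and 215 against 123 and 116, so both C24 X Col-0 sums were below both Col-0 X C24 sums. No list had a gene without reads in all 4 libraries. Both C24 X Col-0 libraries were above both Col-0 X C24 libraries for 4 of 5 photosynthetic genes of green tissue (10% of all tested genes), and edgeR called 4 of the 5 higher with the replicate number as a block (4.42% of all) and 0 without it. Their sum was 853 and 404 in Col-0 X C24, against 1550 and 1410 in C24 X Col-0. Their part in the levels given below was not tested, and no gene of these 5 lists met the rule. Replicate 2 of C24 X Col-0 had reads on 62.2% of the 9675 loci that had none in the other 5 columns of the table. Where it had reads, the median was 0.724 and the maximum 15.6 RPM, and 137 of the 9675 loci (1.42%) reached 5 RPM. The same share was not taken for any other column. Without replicate 2 of C24 X Col-0, 138 loci met the rule.

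The 75 loci differed widely in level. Their median was 1.23 and 1.13 RPM in Col-0 X C24, against 20.2 and 24.1 in C24 X Col-0. The ratio of the lower C24 X Col-0 value to the higher Col-0 X C24 value had a median of 8.24 and ranged from 4.02 to 72.8, with a count of 0 in any library set to 3 counts. It was 10 or more at 30 loci, 20 or more at 16 and 50 or more at 3. In C24 X Col-0 the mean of both replicates was under 20 at 33 loci, 50 or more at 18 and 100 or more at 7. No read was counted in either Col-0 X C24 library at 6 loci, and in exactly 1 of them at another 12.

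**Figure D1:**
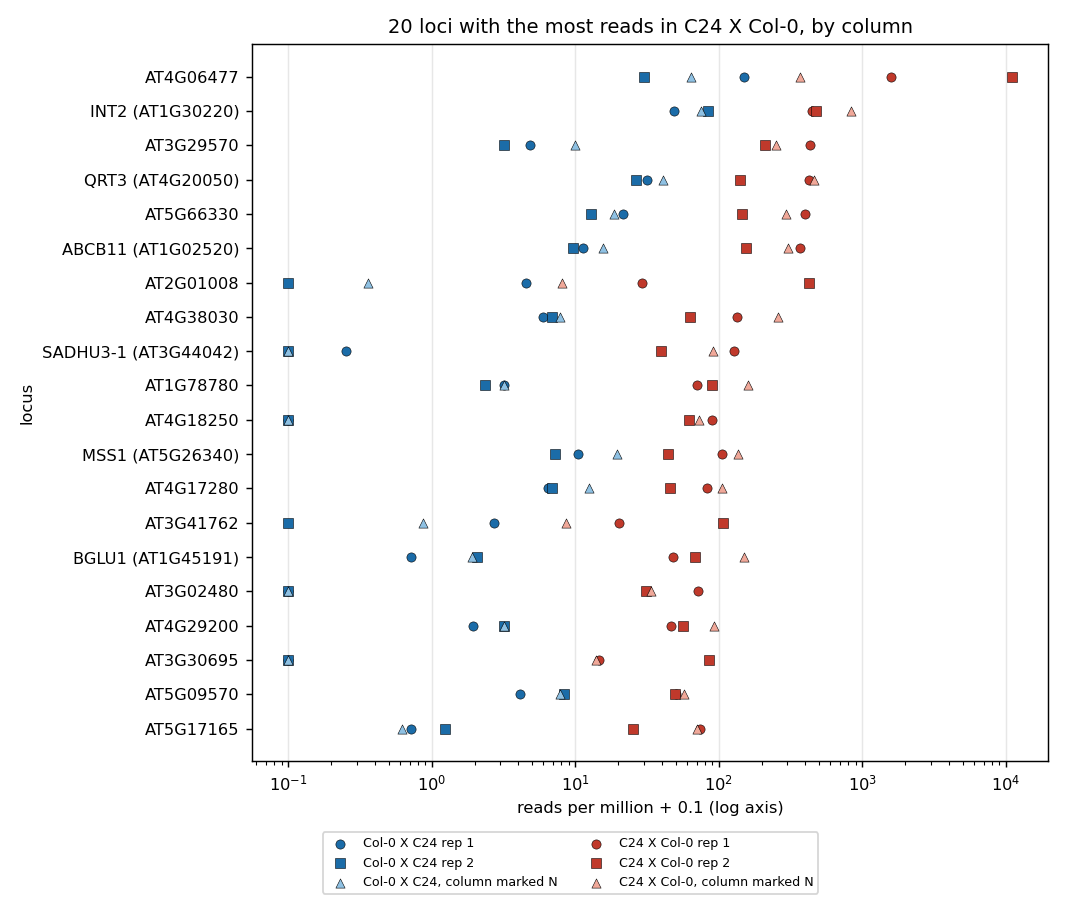
RPM plus 0.1 (log axis) of the 20 included loci with the highest mean in C24 X Col-0, with 1 point for each column of the table. The red circles and squares, the C24 X Col-0 replicates, lie to the right of the blue ones at each locus because the loci were chosen so. The triangles are the columns marked N, which were not used in the choice but carry the name of replicate 1. AT4G06477 and AT2G01008 have the widest gap between the replicates of C24 X Col-0, at 1580 and 11100 and at 29.3 and 424 RPM.

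At 6 loci no read was counted in either of the 2 Col-0 X C24 libraries. The most abundant of them in replicate 1 of C24 X Col-0 was AT4G18250 (chromosome 4, 10087205 to 10090276, 5 exons), annotated as a receptor-like serine/threonine kinase, a class of membrane proteins that sense signals outside the cell. It had 89.3 and 61.8 RPM in C24 X Col-0, at least 72.8-fold higher than the value that 3 counts give in the shallower Col-0 X C24 library. AT3G02480 (chromosome 3, 512220 to 513036, 3 exons) encodes a protein of the late embryogenesis abundant family, whose members accumulate in drying seeds and under water deficit. Its level was 71.6 and 31.1, at least 36.7-fold higher than the same limit. The other 4 were the pseudogene AT3G30695, AT5G25020 of unknown function, the ABC transporter gene ABCG19 (AT3G55130) and AT4G12545, which encodes a protein of the lipid-transfer and albumin superfamily. These ranged from 5.90 to 85.5 RPM in the C24 X Col-0 libraries. In the Col-0 X C24 column marked N, AT5G25020 had 0.516 RPM and AT4G12545 had 0.258.

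Among the genes most widely separated between the crosses, 4 were taken. All but AT3G29570 (4.77 and 3.11 RPM) had few or no reads in Col-0 X C24. The regions around the starts of these 4 genes are shown. They are the reference (Col-0) sequence of RefSeq TAIR10.1 from 250 bases before to 50 bases after the annotated start, 300 bases in the direction of transcription, at chr4:10090227-10090526, minus strand, for AT4G18250, chr3:511970-512269, plus strand, for AT3G02480, chr1:20173900-20174199, minus strand, for ESP, and chr3:11364740-11365039, minus strand, for AT3G29570. Capitals mark the W-box cores TTGACC and TTGACT, bound by WRKY factors, the G-box CACGTG, bound by bZIP and bHLH factors, and TATAAA as printed, with the W-box cores also read on the other strand as GGTCAA and AGTCAA.
AT4G18250: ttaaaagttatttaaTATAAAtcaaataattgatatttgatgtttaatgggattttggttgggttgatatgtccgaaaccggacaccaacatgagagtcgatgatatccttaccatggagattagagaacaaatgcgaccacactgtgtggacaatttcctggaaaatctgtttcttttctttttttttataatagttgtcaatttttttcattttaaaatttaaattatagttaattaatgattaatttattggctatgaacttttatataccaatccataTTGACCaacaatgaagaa
AT3G02480: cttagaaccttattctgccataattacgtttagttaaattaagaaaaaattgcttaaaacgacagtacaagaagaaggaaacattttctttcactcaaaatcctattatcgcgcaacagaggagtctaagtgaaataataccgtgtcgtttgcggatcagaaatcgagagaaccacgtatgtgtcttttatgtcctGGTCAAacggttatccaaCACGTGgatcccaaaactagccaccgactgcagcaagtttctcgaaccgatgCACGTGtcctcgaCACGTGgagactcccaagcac
ESP: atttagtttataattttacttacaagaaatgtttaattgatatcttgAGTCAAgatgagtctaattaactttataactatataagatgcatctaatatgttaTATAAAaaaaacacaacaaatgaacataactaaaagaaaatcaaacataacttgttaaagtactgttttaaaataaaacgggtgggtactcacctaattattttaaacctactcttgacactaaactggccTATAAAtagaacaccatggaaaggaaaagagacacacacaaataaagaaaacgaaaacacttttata
AT3G29570: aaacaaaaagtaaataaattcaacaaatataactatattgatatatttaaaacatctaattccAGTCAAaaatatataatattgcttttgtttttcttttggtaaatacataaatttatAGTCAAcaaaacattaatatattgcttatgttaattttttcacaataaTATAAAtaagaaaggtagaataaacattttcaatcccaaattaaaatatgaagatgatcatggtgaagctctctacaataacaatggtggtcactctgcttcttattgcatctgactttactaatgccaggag
AT3G02480 held CACGTG 3 times and GGTCAA once. The C24 sequence of these regions was not used here.

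Over all included genes these letters were described beside the genome. Of the 66 promoters of included protein-coding genes, 30 held TTGACC or TTGACT on either strand (45.5%), against 32.4% of 26711 promoters of the same length. CACGTG stood in 7.6% of the included and 7.8% of all promoters, and TATAAA on either strand in 53.0% and 52.6%. A match of letters is a description of the window and no evidence that a factor binds.

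Several of the genes with the most reads encode proteins that carry solutes across membranes. INT2 (AT1G30220) encodes a myo-inositol transporter of the plasma membrane. It had 48.8 and 84.5 RPM in Col-0 X C24, against 444 and 478 in C24 X Col-0. The ATP-binding cassette transporter gene ABCB11 (AT1G02520) had 11.2 and 9.61 in Col-0 X C24, against 367 and 155 in C24 X Col-0. MSS1 (AT5G26340), also known as STP13, encodes a hexose and proton symporter and was at 10.3 and 7.07 against 105 and 44.2. The replicates of C24 X Col-0 were close for INT2, with replicate 2 at 1.08 times replicate 1, and further apart for ABCB11 (0.423) and MSS1 (0.421). The amino acid transporter gene BAT1 (AT2G01170) was near the fold threshold, with 4.16 and 3.67 against 62.0 and 17.2.

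Enzymes and structural proteins of the cell wall were also among the loci. QRT3 (AT4G20050) encodes a pectin-degrading enzyme that separates the pollen grains of a tetrad in the anther. It was counted at 31.5 and 26.3 RPM in Col-0 X C24, against 423 and 141 in C24 X Col-0. AT4G38030, a rhamnogalacturonate lyase gene whose product also acts on pectin, stood at 5.85 and 6.78 against 134 and 63.4. The gene for the arabinogalactan protein AGP14 (AT5G56540) had 3.23 and 2.26 against 30.2 and 14.7. Xylan methyltransferase genes of the same family were both included, GXMT1 (AT1G33800) at 22.6 and 21.6 and GXM2 (AT4G09990) at 12.5 and 24.1 in C24 X Col-0, and neither exceeded 3.67 in Col-0 X C24. The glycosyl hydrolase gene BGLU1 (AT1G45191) had 0.616 and 1.98 against 48.0 and 68.6. The extensin gene EXT4 (AT1G76930), for a structural wall glycoprotein, was the lowest of these, at 0.616 and 0 against 7.87 and 10.9.

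AT3G29570 (chromosome 3, 11363806 to 11364789, 1 exon), of unknown function, had 4.77 and 3.11 RPM in Col-0 X C24, against 431 and 211 in C24 X Col-0. Per kilobase of transcript it was the most abundant included protein-coding gene in replicate 1 of C24 X Col-0, at 438 RPM per kilobase, followed by AT5G66330 at 257, QRT3 at 213 and INT2 at 209. In replicate 2 the order was different, since AT2G01008 reached 265 and INT2 225 per kilobase, AT3G29570 214 and AT5G66330 92.8. AT5G66330 encodes a protein with leucine-rich repeats and was at 21.5 and 12.7 RPM in Col-0 X C24, against 399 and 144 in C24 X Col-0. Of the 80-base windows of its transcript, 23.46% also occur in AT5G66335, an overlapping gene on the opposite strand.

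Others are known from defence and cell signalling. PEP7 (AT5G09978) encodes the precursor of an elicitor peptide, a signal of damage that cell surface receptors perceive. It had 0 and 0.283 RPM in Col-0 X C24, against 23.8 and 25.7 in C24 X Col-0. PUB23 (AT2G35930), a ubiquitin ligase that dampens immune signalling, was at 5.69 and 1.41 against 26.6 and 24.3, and its relative PUB39 (AT3G47820) at 2 and 1.13 against 10.2 and 10.9. SYP122 (AT3G52400), a syntaxin of secretion at the plasma membrane, stood at 1.85 and 0.848 against 19.2 and 16.3. BAM2 (AT3G49670), a receptor kinase related to CLAVATA1, had 0.923 and 2.54 against 11 and 29.9. AT1G78780, of the pathogenesis-related family, was the most abundant of the group, at 3.08 and 2.26 in Col-0 X C24, against 70.3 and 89.5 in C24 X Col-0. AT5G64910, annotated as a serine/threonine kinase, had 0.462 and 0 against 28.4 and 33.5. No gene of an 18-gene list of salicylic acid defence or of a 10-gene list of jasmonate response met the rule, which at 0.223% of all loci is no result about lists of these sizes. The summed level of the former was 117 and 203 in Col-0 X C24, against 54.2 and 160 in C24 X Col-0.

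One gene of glucosinolate breakdown was included. ESP (AT1G54040, chromosome 1, 20170715 to 20173949) encodes the epithiospecifier protein, which diverts glucosinolate breakdown from isothiocyanates to nitriles and is known to vary between accessions. It had 1.23 and 0.283 RPM in Col-0 X C24, against 30.6 and 42.9 in C24 X Col-0, and the columns marked N held 2.58 and 25.6. ESM1 (AT3G14210), whose product favours isothiocyanates over nitriles, had the opposite pattern, at 75.1 and 96.7 in Col-0 X C24, against 0.164 and 1.27 in C24 X Col-0, with 103 and 0 in the columns marked N. Of the 15 genes in the glucosinolate list 8 had enough reads for the test across genes described below. With the replicate number as a block, 1 of the 8 was called higher in C24 X Col-0 (4.42% of all tested genes), ESP itself, whose call restates how it was chosen. ESM1 was called lower (2.24% of all tested genes, log2 difference -6.63 without the block, adjusted p = 4.71e-06 with it, edgeR). Without the block none passed. The myrosinase genes TGG1 and TGG2, whose products start the breakdown, did not pass with or without the block. TGG1 overlapped between the crosses, at 2.92 and 9.33 against 0.983 and 6.88, and TGG2 had 5.39 and 5.65 against 5.74 and 17.2.

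Pseudogenes were a larger share of the included loci than of all loci that reached 5 RPM in both C24 X Col-0 libraries. Of the 75 loci, 66 were protein-coding, 8 were pseudogenes and 1 was a noncoding RNA, AT4G04223. The pseudogenes made up 10.7% of the included loci, 14.4% of all loci in the table, and 0.332% of the 11453 loci with at least 5 RPM in both C24 X Col-0 libraries. That last set holds the 75 loci and shares only this minimum with them, so level was not matched. Of the 8, 4 belonged to the Sadhu family.

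Sadhu elements are short retrotransposons that encode no protein, and their expression is known to differ between accessions according to DNA methylation. The annotation notes for SADHU3-1 and SADHU3-2 that the allele is methylated and silent in some natural accessions. SADHU3-1 (AT3G44042, chromosome 3, 15813075 to 15814056) had 0.154 and 0 RPM in Col-0 X C24, against 127 and 39.8 in C24 X Col-0. SADHU3-2 (AT3G42658, chromosome 3, 14749400 to 14750294) had 0.154 and 0.848 against 33.6 and 25.2. Both were thus close to absent with Col-0 as seed parent. SADHU1-3 (AT5G28626) was at 8.77 and 4.52 against 54.4 and 39.1, and SADHU5-1 (AT4G01525) at 1.23 and 0.848 against 5.57 and 7.43. SADHU1-3 kept a measurable level in Col-0 X C24, and SADHU5-1 was near the level threshold.

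A stretch of 120 bases from near the 5′ end of SADHU3-1 and of SADHU3-2 is shown to make their likeness visible, since reads of like copies could be exchanged. They are TAIR10.1 sequence at chr3:15813929-15814048, minus strand, and at chr3:14750175-14750294, minus strand, and capitals mark bases that are identical in the alignment of both whole elements.
SADHU3-1: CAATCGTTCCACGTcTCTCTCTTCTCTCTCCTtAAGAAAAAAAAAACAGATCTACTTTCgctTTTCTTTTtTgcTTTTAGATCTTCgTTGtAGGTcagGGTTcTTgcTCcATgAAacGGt
SADHU3-2: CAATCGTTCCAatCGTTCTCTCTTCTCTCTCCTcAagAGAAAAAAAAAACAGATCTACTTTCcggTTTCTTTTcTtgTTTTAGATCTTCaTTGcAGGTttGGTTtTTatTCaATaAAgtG
Over their full length 713 of 887 aligned bases were identical (80.4%), and no window of 80 bases was shared between them or with another annotated locus.

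The family did not move as one. Of 15 Sadhu loci in the table, 9 had enough reads to be tested, 4 met the rule and 1, SADHU4-1 (AT5G28913), met the mirrored rule with 44.3 and 24.3 RPM in Col-0 X C24, against 3.44 and 4.35 in C24 X Col-0. SADHU1-1 (AT2G10410) was also higher with Col-0 as seed parent, at 89.3 and 3.96 against 0.492 and 0.724, with replicates of Col-0 X C24 far apart. SADHU10-1 (AT3G58865) was higher in both C24 X Col-0 libraries, at 39.7 and 16.7 against 6.62 and 1.41, but fell short of the fold. SADHU1-2 (AT1G30835) had 20.2 and 7.07 against 20 and 26.6, so its crosses overlapped. There were 5 loci with under 10 reads in each of the 6 columns.

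**Figure D2:**
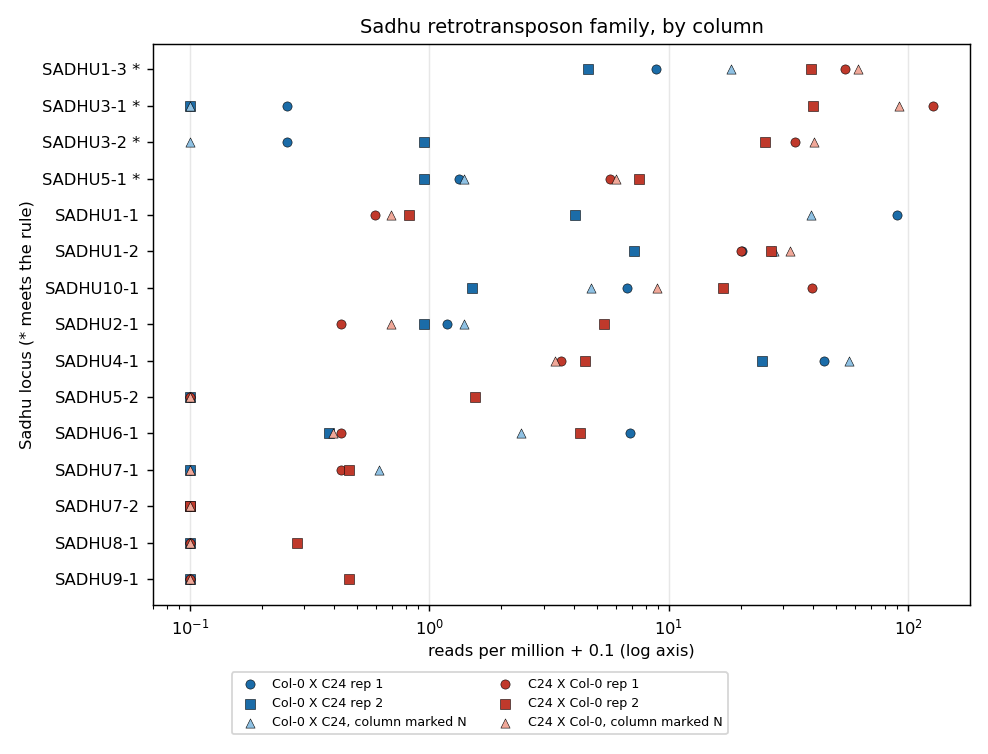
RPM plus 0.1 (log axis) of the 15 Sadhu loci of the annotation in each column of the table, with a star at the 4 that met the rule. SADHU3-1 and SADHU3-2 lie near 0 in Col-0 X C24 and between 25.2 and 127 in C24 X Col-0, while SADHU1-1 and SADHU4-1 lie the other way round.

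The locus with the most reads was a pseudogene, first in both C24 X Col-0 libraries but at very different levels. AT4G06477 (chromosome 4, 3060975 to 3065294) had 151 and 30 RPM in Col-0 X C24, against 1580 and 11100 in C24 X Col-0. Replicate 2 was thus 7.01 times replicate 1 in C24 X Col-0 and 0.199 times in Col-0 X C24. With it, the 75 loci summed to 5680 and 14500 RPM in C24 X Col-0 and to 398 and 285 in Col-0 X C24. Without it the sums were 4100 and 3370 against 248 and 255, nearer between replicates.

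AT2G01008 and AT3G41762 lie beside the arrays of ribosomal RNA genes on chromosomes 2 and 3. AT2G01008 ends 532 bases before a small-subunit ribosomal RNA gene (AT2G01010), and AT3G41762 lies 811 bases from another (AT3G41768). They share a stretch of 245 bases on opposite strands, and 35.78% and 39.63% of their 80-base windows occur in another annotated locus. In the region of the ribosomal RNA gene on the other chromosome, 56.73% and 44.94% of their windows occur. AT2G01008, annotated as a maternal effect embryo arrest protein, had 4.46 and 0 RPM in Col-0 X C24, against 29.3 and 424 in C24 X Col-0. AT3G41762 had 2.62 and 0 against 20.2 and 107. Both were therefore highest in replicate 2 of C24 X Col-0. The ribosomal RNA gene AT3G41768 itself was at 2230 and 617 in Col-0 X C24, against 3660 and 2610 in C24 X Col-0, with replicate 2 below replicate 1 in both crosses. Its columns marked N were lower than any of these, at 107 for Col-0 X C24 and 85.4 for C24 X Col-0. AT3G30695, another locus with shared sequence (36.29% of windows), had 14.6 and 85.5 in C24 X Col-0.

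At 53 of the 75 loci no window of 80 bases of the longest transcript occurred in the longest transcript of another annotated locus, and 22 loci shared at least 1, some of them only with loci that have no row in the table. The largest share, 53.09%, was at AT4G32208, annotated in the heat shock protein 70 family, whose windows also occur in AT5G09590. AT4G32208 had 0.462 and 0.565 against 11.6 and 7.61. Elsewhere in the genome, annotated or not, the share of windows with another copy was highest at AT2G01008 (56.73%). It was 54.57% at SADHU5-1, 54.04% at AT4G32208 and 44.94% at AT3G41762. There were 17 loci that overlapped another annotated gene, 15 of them on the opposite strand. Counting was not stated to use the strand, so reads of such partners cannot be told apart. AT4G17280, an auxin-responsive family gene at 6.31 and 6.78 against 83.1 and 46.0, overlaps AT4G17270 on the opposite strand, and that partner was at 48.6 and 78.3 against 34.4 and 45.6. JAL34 (AT3G16460), for a mannose-binding lectin, had 6.93 and 2.54 against 66.0 and 29.9, and its opposite-strand partner AT3G16470 had 114 and 188 against 168 and 253. Neither partner separated by as much as the included gene.

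The table holds a further column for replicate 1 of each cross, marked N, with 3876803 reads for Col-0 X C24 and 3395442 for C24 X Col-0. The rule did not use these columns, but they carry the name of replicate 1 and are not further biological replicates, and with 1 column per cross no test was made. Since values of replicate 1 helped choose the loci, agreement in these columns is no independent support for the difference. All 75 loci were higher in C24 X Col-0 in them. The median level was 1.55 against 25.3 RPM and the median fold 13.7, with a range from 1.96 to 136 where a count of 0 is set to 3 counts. The difference was at least 4-fold at 66 loci (88.0%), against 1.86% of all loci, 1.36% of the 11453 loci at 5 or more RPM in both C24 X Col-0 libraries, and 0.791% of those loci once the 75 were set aside. Setting the 75 aside removes loci chosen for their fold, which lowers that last share. The difference was at least 2-fold at 74 and at least 10-fold at 48, and no read was counted at 10 loci in Col-0 X C24. Within C24 X Col-0, the column marked N over replicate 1 had a median ratio of 1.14 at the 75 loci and 2.02 at the 11453. What set these columns apart from replicate 1 was not tested.

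Among the widest separations in these columns was AT5G17165, of unknown function, with 0.516 against 70.4 RPM (136-fold). In the libraries that chose it, AT5G17165 was at 0.616 and 1.13 against 74.2 and 25.0. SADHU3-1 had 0 against 91.3, at least 118-fold, and AT4G18250 0 against 73.3, at least 94.8-fold. BGLU1 followed with 1.81 against 151 (83.8-fold) and AT3G52550, for an ovate-family repressor of transcription, with 0.516 against 41.2 (79.9-fold). At the other end PUB23 had 10.1 against 19.7, which is 1.96-fold. AT5G38940 was at 2.32 against 5.89 (2.54-fold) and PRA1.B5 (AT5G01640), for a prenylated Rab acceptor, at 3.61 against 9.72 (2.69-fold). AT4G20840 had 6.19 against 16.8 (2.71-fold) and PUB39 1.29 against 3.53 (2.74-fold). The smallest folds in these columns were thus still in the direction of the rule.

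**Figure D3:**
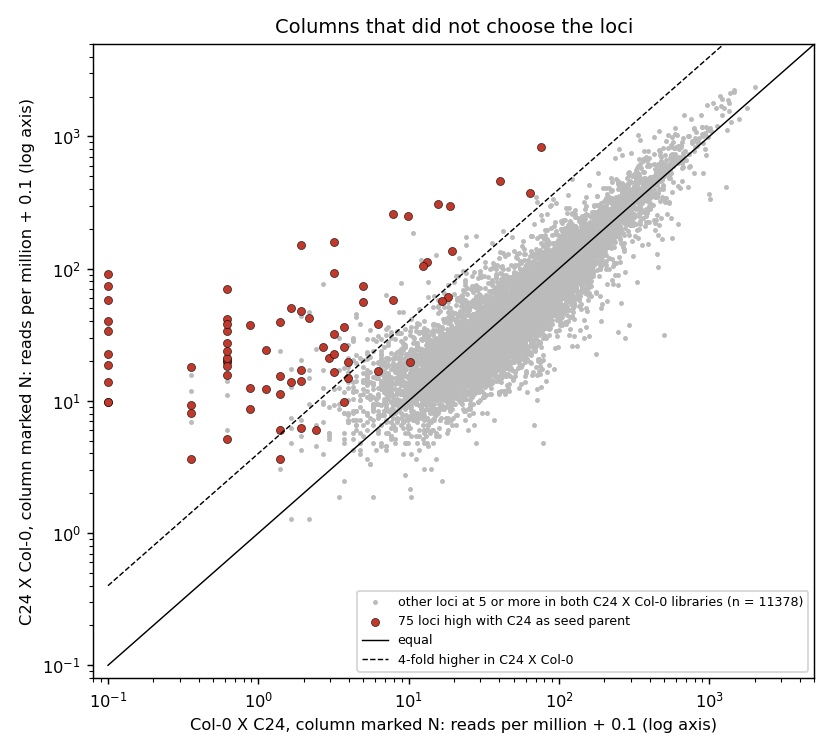
RPM plus 0.1 in the columns marked N (log axes), Col-0 X C24 against C24 X Col-0, for 11453 loci with at least 5 RPM in both unmarked C24 X Col-0 libraries. All 75 included loci (red) lie above the line of equality and 66 on or above the line of a 4-fold difference, as do 90 of the 11378 other loci (grey); points at 0.1 on the horizontal axis are loci with 0 reads.

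Replicates were compared with the quasi-likelihood test of edgeR, replicate 2 against replicate 1 with a term for the cross. The rule did not use this contrast itself, but it used the values of the same 4 libraries. Replicate 2 differs from replicate 1 by the stated nuclease treatment, and no p-value here separates that treatment from other differences between replicates. Of 16779 genes tested, 1663 passed at an adjusted p under 0.05 (9.91%), 542 higher in replicate 2 (3.23%) and 1121 lower (6.68%). Of the 75 loci, 15 passed (20%), 14 of them lower in replicate 2 (18.7%) and 1 higher. On the log2 scale the median change of the 75 was -0.61 against 0.07 over all tested genes, and 59 had a lower fitted value in replicate 2. Without the term for the cross 0 genes passed, and DESeq2 with it called 8 of the 75, all lower in replicate 2. Since high abundance in C24 X Col-0 was part of the rule, this is a statement on these loci and no comparison at equal abundance. The rule also took the lower C24 X Col-0 and the higher Col-0 X C24 replicate, so the choice depended on replicate values. The edgeR values use TMM scaling, in which a higher factor lowers the scaled value. The factors were 0.696 and 1.12 in C24 X Col-0, and 1.01 and 1.27 in Col-0 X C24. In RPM, which lack this scaling, the median ratio of replicate 2 to replicate 1 was 0.986 in C24 X Col-0. It was 1.02 at the 57 loci with reads in both Col-0 X C24 replicates.

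SADHU3-1 had the lowest p, with a log2 change of -2.37 (SE 0.40, adjusted p = 0.00266, edgeR). JAL34 changed by -1.81 (SE 0.33, adjusted p = 0.00385, edgeR) and AT5G66330 by -1.68 (SE 0.35, adjusted p = 0.00926, edgeR). AT3G02480, MSS1, AT3G29570, SADHU1-3, BAT1, AT4G03540, AT5G17165, AT5G25020, ABCB11, AGP14 and QRT3 also passed, from SADHU1-3, which fell by 1.21, to AT5G25020, which fell by 2.32. AT3G30695 was the only one that rose, by 1.85 (SE 0.44, adjusted p = 0.0209, edgeR). In Col-0 X C24, SADHU3-1 and AT4G03540 each had 1 and 0 reads, and AT3G02480, AT5G25020 and AT3G30695 had none. The change at these loci thus rests on the C24 X Col-0 pair. So does that of AT5G17165, which had 4 reads in each Col-0 X C24 library, or 0.616 and 1.13 RPM, with no fall there. The p-values of all these loci do not measure a change repeated in both crosses. Over the 75 loci the ratio of replicate 2 to replicate 1 within C24 X Col-0 had a median of 0.986 and ran from 0.278 (BAT1) to 14.5 (AT2G01008), with 37 loci above 1 and 38 below, while the median over the 11453 loci was 1.44.

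**Figure D4:**
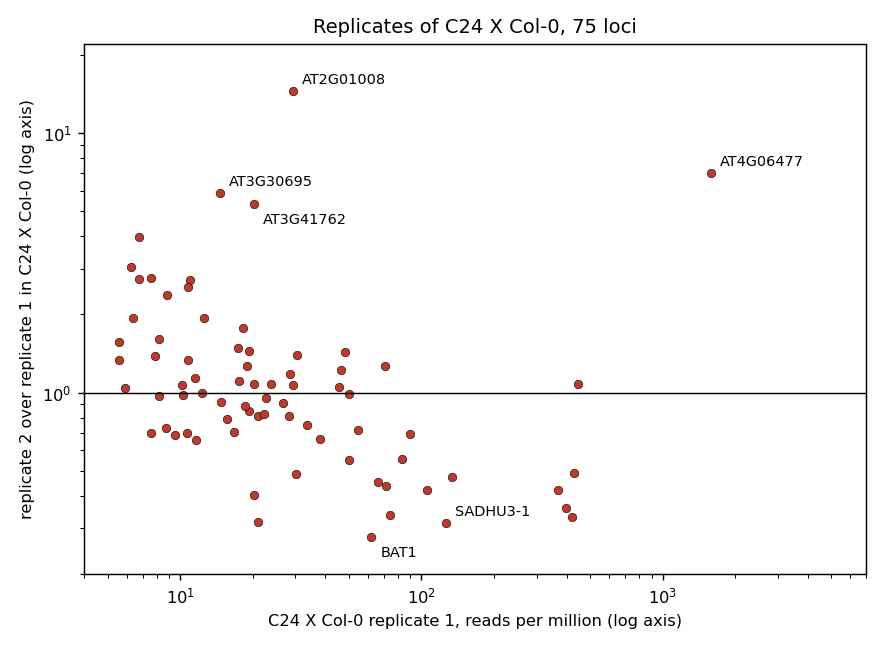
Ratio of replicate 2 to replicate 1 in C24 X Col-0 (log axis) against RPM in replicate 1 (log axis) for the 75 loci, with a line at a ratio of 1. Replicate 1 enters both axes; AT2G01008 (14.5), AT4G06477 (7.01), AT3G30695 (5.86) and AT3G41762 (5.33) are the highest and BAT1 (0.278) the lowest.

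The same test between the crosses, without the replicate number, called 0 of 16779 genes (0%), and 1251 had an unadjusted p under 0.05, among them all 75 loci. With the replicate number as a block it called 1118 genes (6.66%), 742 higher in C24 X Col-0 (4.42%) and 376 lower (2.24%), and 72 of the 75 loci were among the higher ones. DESeq2 without the block called 302 genes, 71 of them of the 75. These counts only restate how the loci were chosen. The median fitted log2 difference of the 75 was 4.59, against 0.01 over all tested genes.

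Gene structure, which the rule did not use, was described beside that of other loci. In their longest transcripts, the 66 protein-coding genes had a median of 2 exons. The median was 5 in the 11385 protein-coding loci with at least 5 RPM in both C24 X Col-0 libraries. This is a shared minimum and no match of level. Of the 66, 19 had a single exon (28.8%), against 10.5%. Their longest transcript had a median of 1360 bases against 1770, and a GC content of 43.1% against 41.7%. They lay on all 5 chromosomes, 18 on chromosome 1, 8 on chromosome 2, 15 on chromosome 3, 17 on chromosome 4 and 17 on chromosome 5, or 24%, 10.7%, 20%, 22.7% and 22.7% of the 75 against 24.8%, 16.2%, 19.7%, 15.1% and 22% of all loci. The products of 15 loci were uncharacterized.

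Neighbouring genes were mostly unlike the included ones. Of the 145 loci next to them on either side 76 had enough reads, and both C24 X Col-0 libraries were above both Col-0 X C24 libraries at 10 (13.2%), against 10% of all tested genes. The median log2 difference of these neighbours was 0.04. Only 2 pairs of included loci lay within 5 loci of each other. AT4G12545 and AIR1 (AT4G12550), both of the lipid-transfer superfamily, lie 4257 bases apart, and AIR1, first found in auxin-induced root cultures, had 0.769 and 0.565 against 10.8 and 27.7 RPM. AT4G12545 had 0 and 0 against 5.90 and 6.16, and CPR1 (AT4G12560), the next locus, 32.3 and 55.1 against 14.8 and 47.6. The other pair, AT5G38930 and AT5G38940, encodes cupin proteins and lies 2594 bases apart, with 2.77 and 2.83 against 15.6 and 12.3, and 1.39 and 0.283 against 9.51 and 6.52. CPR1 overlapped between the crosses, and AT5G38950, next to the second pair, had no read in any column.

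The loci were also looked up in gene sets of the seed. Of the 939 genes of an endosperm-specific list of the study that have a row in the table, 5 were included (0.532%, against 0.223% of all loci), namely AT3G29570, AIR1, AT1G64680, AT3G15810 and AT4G20840. AT1G64680, annotated as a beta-carotene isomerase, had 1.85 and 2.83 against 21.1 and 17.2 RPM, and AT4G20840, for a berberine-bridge type oxidase, 1.69 and 1.98 against 10.3 and 10.1. The lists of 65 paternally expressed genes known from the literature and of 77 found by the study held no included gene, and neither did those of heat shock and flowering time genes. At 0.223% of all loci, lists of these sizes would hold under 1, so a count of 0 is at the share of all loci. Of the 77, which the study chose partly on these crosses, 19 were tested. Both C24 X Col-0 libraries lay above both Col-0 X C24 libraries at 8 of the 19 (10% of all tested genes), and with the replicate block edgeR called 7 higher (4.42% of all) and 0 lower, but without the block 0.

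Several loci of the widest separation were annotated only by protein family. AT4G15165, of the proteasome-type hydrolase superfamily, had 0.308 and 0.283 against 22.3 and 18.5, a ratio of 60.0 between the lower C24 X Col-0 and the higher Col-0 X C24 value. AT4G03540, of a family of membrane proteins of unknown function, had 0.154 and 0 against 50.3 and 27.7, at least 32.7-fold with the library without reads set to 3 counts. AT1G59960, an oxidoreductase gene, had 0.308 and 0.283 against 8.19 and 7.97 (25.9). In all 3 the highest Col-0 X C24 value was 0.308 or less, which is 2 reads or fewer.

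The thresholds cut through a continuum of values. Just inside the fold threshold lay AT3G15810 at 4.02-fold, BAT1 at 4.14 and AT3G50625 at 4.14, and just outside it CXE5 (AT1G49660) at 3.82, CYP79C1 (AT1G79370) at 3.79 and AT5G53700 at 3.76. At the level threshold AT1G48180 was the lowest included locus with 5.25 RPM in its lower C24 X Col-0 library, then SOT7 (AT1G28170) and SADHU5-1 with 5.57. AGL58 (AT1G28450) at 4.89, AT5G56920 at 4.53 and AT3G59850 at 4.53 met the fold and were left out for level.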

How the data were processed

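Counts per locus were analysed for 4 mRNA-seq libraries of seeds, 2 per cross. Per locus, the deposited values are raw read counts that the authors left unnormalized, made after alignment with BWA to TAIR10 cDNA and merging of gene models. The submitters' notes name BWA 0.5.8c and SAMtools 0.1.7. That reference is Col-0 sequence, so reads of C24 alleles align with more mismatches, and its part in the levels was not tested. The meaning of the mark N is not given in the sources used here. The 5 amplicon samples were not analysed here.

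The members and gene lists were chosen with earlier results of these data known. RPM used column totals, and a count of 0 was set to 3 counts for folds, which covers counting error only. Genes with at least 10 counts in at least 2 libraries were tested with edgeR 4.0.16 in R 4.3.3 (quasi-likelihood, TMM, Benjamini-Hochberg, threshold 0.05), and DESeq2 1.42.0 was an alternative. The fits were also run on simulated counts with less spread than these libraries and no difference between replicates. That run therefore does not measure how the fits perform on these data. Standard errors come from the fold change and F statistic. P-values measure only the spread between these libraries. Replicate numbers pair the libraries across crosses, since replicate 2 of both had the nuclease treatment. The replicate difference of one cross correlated with that of the other (Pearson r = 0.553 over 16779 genes, which are not independent). Named genes were those with the 15 highest means in C24 X Col-0, the 12 highest folds, list members, loci at the thresholds, close pairs, the 5 lowest and 5 highest folds in the columns marked N and the 3 of lowest p between replicates in each direction. Other members were named after their values were seen, for their known roles. Sequences, exons and positions are from RefSeq TAIR10.1, which matched 32835 loci (97.7%).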

Additional observations from a re-analysis of the deposited data

Results flagged for a closer look

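At 3 loci with at least 10 reads in the Col-0 X C24 libraries together, replicate 2 was at least 2-fold above replicate 1 in one cross and at least 2-fold below it in the other. This difference between the crosses was not tested. At AT2G01008, replicate 2 over replicate 1 was 14.5 in C24 X Col-0 and at most 0.19 in Col-0 X C24, where replicate 2 had no reads. At AT3G41762 the ratios were 5.33 and at most 0.324, the same library being empty there. At AT4G06477 they were 7.01 and 0.199.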

How the results depend on the processing

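The number of included loci was 75. It was 40 with a fold of 8, 120 with a minimum of 2 RPM, and 302 with the columns marked N alone, an alternative chosen after seeing the data that kept 65 of the 75. With TMM library sizes 103 loci met the rule, 68 of them among the 75, and with the columns marked N in place of replicate 1 it was 107, of which 59 were among the 75. Leaving out 1 library gave 116 to 877 loci: 292 and 116 without replicate 1 and 2 of Col-0 X C24, 877 and 138 without those of C24 X Col-0. The 75 always remain then, by construction. Of 450 log2 ratios of single loci under alternatives, 0 reversed, 14 moved by more than 1 SD, and the smallest was 1.93. Leaving out a library could not reverse a ratio, since the rule set both C24 X Col-0 values above both Col-0 X C24 values. The remaining alternatives only rescale the libraries, so the absence of reversals is no support for the difference.

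Between the crosses edgeR called 0 genes, and 1118 with the replicate block, 585 without a filter on low counts and 302 with DESeq2. Of the 75 loci, 72, 73 and 71 were called in these. Leaving out 1 library gave 0 to 76 genes and 0 to 32 of the 75. Of these, 74 genes and 29 loci were called without replicate 1 of Col-0 X C24, 76 and 32 without its replicate 2, and none without either library of C24 X Col-0. Such fits assume that the lone library varies like the other cross. Between replicates, 1663 genes and 15 of the 75 loci passed. Without a term for the cross both counts were 0, with 1978 genes and 0 of the 75 at an unadjusted p under 0.05. DESeq2 called 1320 genes and 8 of the 75, and edgeR without a filter called 2442 and 19. Leaving out a library leaves no residual degrees of freedom in the replicate comparison, so it was not run. The depth, at which 3 counts are 0.462 to 0.848 RPM, limits folds against loci with few reads.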
